A study of Solea senegalensis with 30 samples.

Results

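The miR-451 and miR-144 microRNAs of Senegalese sole (Solea senegalensis) plasma were described from small RNA sequencing of 30 fish. All sequence variants (isomiRs) counted under a miR-451 or miR-144 name were taken. They were 117 of the 2129 isomiRs counted and 3 of the 172 names: miR-451 with 58 isomiRs, miR-144-5p with 44 and miR-144-3p with 15. The fish were captive-bred (G1) adult broodstock given either KISS2-10, the kisspeptin decapeptide, in the muscle at 250 µg/kg, or, as controls, phosphate buffered saline (the sample labels call the controls untreated). The sequenced plasma was taken 2 d after injection from females (5 kisspeptin, 5 control) and males (6 kisspeptin, 4 control). That of 4 d after injection was from males alone (5 of each treatment), which gave 16 kisspeptin and 14 control fish in 6 groups. The p-values measure the spread between these fish. Each treatment had 1 tank per day, so treatment and tank, and likewise day and tank, cannot be told apart. The pooled libraries were sequenced in 2 runs, and it is not stated whether they were divided between the runs.

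Vertebrate red cells carry miR-451 and miR-144 in large amounts, and the pair is transcribed as 1 cluster that the erythroid factor GATA1 activates in mouse and zebrafish. The hairpin of miR-144 is cut by Dicer into a 5p and a 3p arm, as in most miRNAs. The hairpin of miR-451 is too short for Dicer. Argonaute2 slices it instead, and the long product is then trimmed from its 3′ end, which leaves a single arm and a ragged 3′ end in mouse and zebrafish. In zebrafish, miR-451 is needed for red cells to mature and miR-144 represses klfd, a regulator of globin genes. In plasma, these miRNAs can come from intact or broken red cells, and fewer cells of a type and less RNA per cell cannot be told apart. The paper reports that hemolysis was not visible in the plasma, and that plasma for RNA was centrifuged again against cell debris.

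The most counted forms of each miRNA are shown because the results turn on their ends and on the libraries in which they were counted. The seed, bases 2 to 8 from the 5′ end, is in capitals, and the letters are DNA letters as counted.
miR-451, 21 nt: aAACCGTTaccattactgagt
miR-451, 20 nt: aAACCGTTaccattactgag
miR-451, 22 nt: aAACCGTTaccattactgagtt
miR-451, 20 nt, start 1 base later: aACCGTTAccattactgagt
miR-144-5p, 23 nt: gGATATCAtcttatactgtaagt
miR-144-5p, 22 nt: gGATATCAtcttatactgtaag
miR-144-5p, 24 nt: gGATATCAtcttatactgtaagtt
miR-144-5p, 23 nt, start 1 base later: gATATCATcttatactgtaagtt
miR-144-3p, 21 nt: cTACAGTAtagatgatgtact
miR-144-3p, 20 nt: cTACAGTAtagatgatgtac
miR-144-3p, 19 nt, start 1 base later: tACAGTATagatgatgtac
miR-144-3p, 20 nt, start 1 base later: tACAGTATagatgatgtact
The forms that start 1 base later carry another seed. None of the other 169 names had any of these 6 seeds in its most counted form. Every one of the 117 isomiRs matched the most counted form of its name with 0 mismatches over the bases they shared. No genome position is given, because the annotation used here holds no miRNA entries for this species.

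The 3 miRNAs differed widely in abundance. miR-451 held 302686 counts, 12.7% of the counts of the 172 names analysed here. miR-144-5p held 56489 counts (2.36%) and miR-144-3p held 2318 counts (0.097%). The libraries held 25468 to 191846 counts each (median 60539), so that 1 count was a larger share of a shallow library than of a deep one. Intervals and floors given here cover counting error only.

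Before any comparison of levels, the counts of miR-451 in single libraries need a description, because its main forms were not counted in every library. The 21-nt form made up 64.9% of all miR-451 counts. It had between 1842 and 26788 counts in 17 libraries and 0 in the other 13, where other forms of miR-451 were counted nonetheless (188 to 3784 counts in forms other than the 20-nt, 21-nt and 22-nt ones). The 20-nt form (15.3% of miR-451 counts) was counted in 18 libraries and the 22-nt form (8.90%) in 18, and the libraries were not the same ones: all 3 were counted in 4 fish (A1-3, A2-16, A3-6 and A4-8), 2 of them in 15 fish and 1 in 11. In A1-7, for example, the 22-nt form had 1764 counts and the 20-nt and 21-nt forms 0, while in A1-4 the 21-nt form had 11199 counts and the other 2 had 0. All 7 forms of miR-451 with a median of at least 100 counts where counted were at 0 in some libraries. Of such forms, 0 of 4 of miR-144-5p, 0 of 5 of miR-22a, 2 of 5 of miR-16b and 75 of 111 over all names were at 0 in some libraries.

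**Figure D1:**
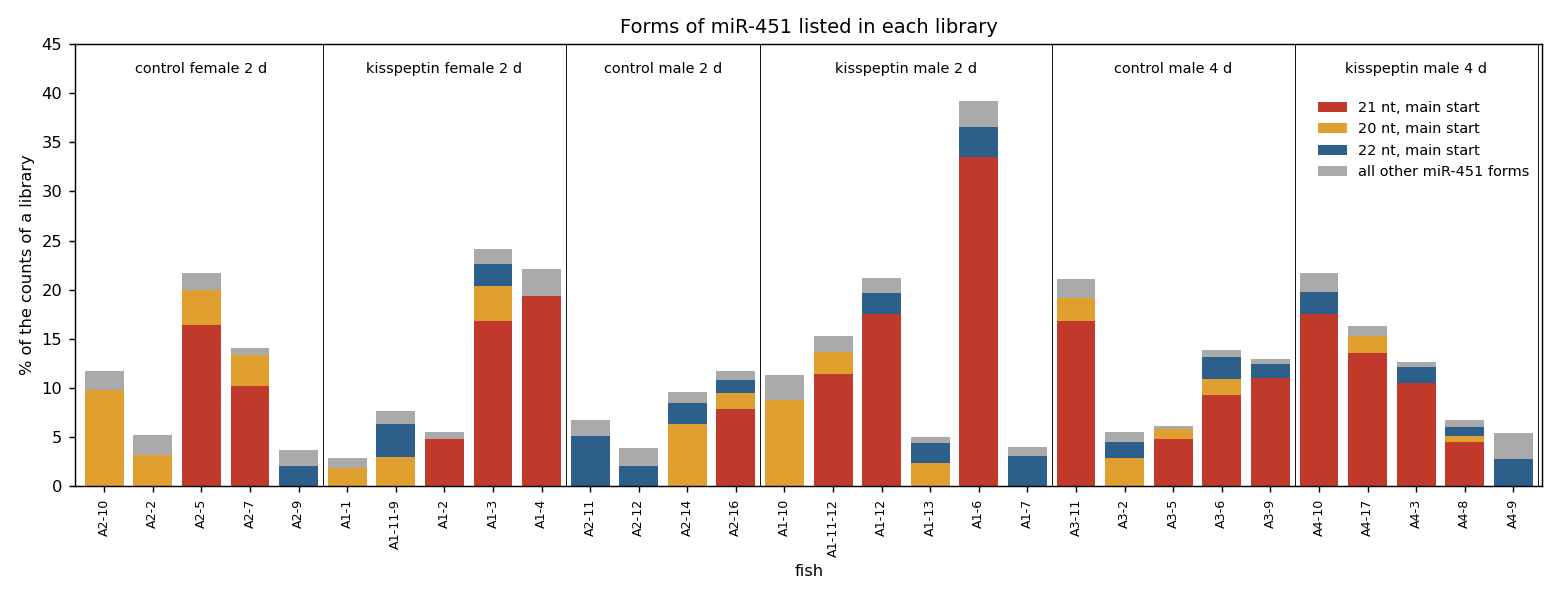
Share of the counts of each library (%, y axis) held by the 21-nt, 20-nt and 22-nt forms of miR-451 with the main start and by all its other forms, for each of the 30 fish (x axis, in groups). The 21-nt form (red) is the largest part of the bar in the 17 libraries where it was counted and is missing in the other 13.

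The 21-nt form made up most of the miR-451 counts. The level of miR-451 in a fish therefore depended in part, by construction, on whether that form was counted. In the 17 libraries where the 21-nt form was counted, miR-451 had 55044 to 392058 cpm (the miRNA's counts scaled to a common library size; median 152763), and in the 13 where it was at 0, 28161 to 117617 cpm (median 54160). The forms other than these 3 had 3020 to 27321 cpm (median 9723) in the former and 5306 to 26739 cpm (median 16095) in the latter, ranges that overlap almost fully. The 21-nt form was counted in 3 of 5 kisspeptin and 2 of 5 control females, in 3 of 6 kisspeptin and 1 of 4 control males at 2 d, and in 4 of 5 males of each treatment at 4 d. The cause of the zeros was not tested. The comparisons of miR-451 between treatments are therefore given with and without the 3 main forms. The next most counted forms (ranks 4 to 7) were themselves at 0 in 10, 9, 15 and 16 libraries. Values without the 3 main forms are thus not free of zeros either.

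The main form of miR-144-3p, 67.5% of its counts, showed the same pattern. It was counted in 11 libraries, with 31 to 316 counts, and was at 0 in 19. It was counted in 5 of 5 control females but in 1 of 5 kisspeptin females, in 2 of 4 control males and 0 of 6 kisspeptin males at 2 d, and in 2 of 5 control and 1 of 5 kisspeptin males at 4 d. In total, 9 of 14 control and 2 of 16 kisspeptin fish had it, a split that was noticed after the counts were seen and is given with no test. The 21-nt form of miR-451 was counted in 7 of 14 control and 10 of 16 kisspeptin fish. Over all names, 75 of 111 forms with a median of at least 100 counts were at 0 in some libraries. How those forms divided between the treatments is not given here, so this split has no background to be read against. The 4 most counted forms of miR-144-5p, in contrast, were counted in all 30 libraries, which makes miR-144-5p the most evenly measured of the 3.

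The share of miR-451 ran from 2.82% to 39.2% over the 30 fish. In kisspeptin females it was 2.82, 5.50, 24.1, 22.1 and 7.69% of the library's counts (A1-1, A1-2, A1-3, A1-4 and A1-11-9), and in control females 5.18, 21.7, 14.1, 3.69 and 11.8% (A2-2, A2-5, A2-7, A2-9 and A2-10). In kisspeptin males at 2 d it ran from 4.00% to 39.2% with a median of 13.3%, and in control males it was 6.77, 3.93, 9.57 and 11.7% (A2-11, A2-12, A2-14 and A2-16). At 4 d it was 5.49, 6.16, 13.9, 13.0 and 21.1% in control males (A3-2, A3-5, A3-6, A3-9 and A3-11) and 12.6, 6.71, 5.42, 21.7 and 16.3% in kisspeptin males (A4-3, A4-8, A4-9, A4-10 and A4-17). Kisspeptin and control fish overlapped in every pair of groups, and the highest value, in A1-6 (95% Wilson interval 38.8 to 39.6%), stood in a library with the 21-nt form. Without the 3 main forms, the remaining forms of miR-451 held 0.302 to 2.73% of a library, with medians of 1.40% in kisspeptin and 1.71% in control females, 1.56% and 1.34% in males at 2 d and 0.972% and 0.717% in males at 4 d, and the ranges of the treatments overlapped in each.

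**Figure D2:**
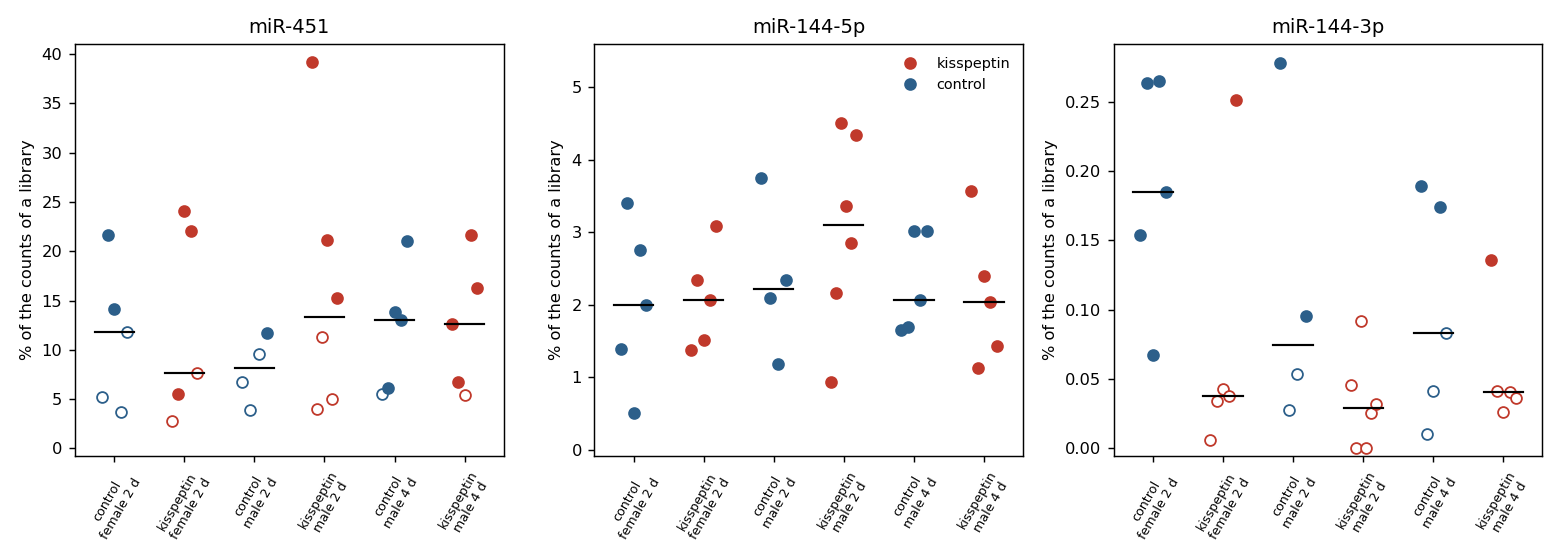
Share of the counts of each library (%, y axis) for miR-451, miR-144-5p and miR-144-3p in the 6 groups (x axis); each point is 1 fish, blue control and red kisspeptin, and the line is the group median. Open points are fish whose 21-nt form of miR-451 (left) or main form of miR-144-3p (right) was at 0. Open points lie mostly low in the left and right panels, and kisspeptin and control fish overlap in all 3.

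On the log2 cpm scale (TMM-scaled over all libraries, prior count of 1), the group means of miR-451 ran from 16.03 ± 0.61 (SD, n = 4) in control males at 2 d to 16.89 ± 1.31 (SD, n = 6) in kisspeptin males at 2 d. The order from high to low was kisspeptin males 2 d, control males 4 d (16.74 ± 0.81, n = 5), kisspeptin males 4 d (16.71 ± 0.95, n = 5), control females (16.54 ± 1.13, n = 5), kisspeptin females (16.50 ± 1.37, n = 5) and control males 2 d. Every step between neighbours in this order, at most 0.47, was smaller than either SD.

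miR-144-5p varied less. Its share was 1.38, 2.34, 1.51, 2.06 and 3.09% in kisspeptin females and 1.38, 3.41, 0.499, 2.75 and 1.99% in control females, with the fish in the order given above. It was 0.929 to 4.51% (median 3.10%) in kisspeptin males at 2 d and 3.76, 2.1, 1.18 and 2.34% in control males. At 4 d it was 1.65, 1.69, 3.01, 2.07 and 3.02% in control and 3.57, 1.13, 2.4, 2.04 and 1.42% in kisspeptin males. The groups overlapped throughout. Group means ran from 14.07 ± 1.14 log2 cpm (SD, n = 5) in control females to 14.74 ± 0.76 (SD, n = 6) in kisspeptin males at 2 d, with control males 4 d (14.49 ± 0.51, n = 5), kisspeptin females (14.30 ± 0.30, n = 5), control males 2 d (14.25 ± 0.70, n = 4) and kisspeptin males 4 d (14.22 ± 0.69, n = 5) between them, and all steps between neighbours were smaller than either SD. The SD over all 30 fish was 0.70 for miR-144-5p, 1.03 for miR-451 and 1.94 for miR-144-3p.

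miR-144-3p was the scarce arm. Its share was 0.0063, 0.0338, 0.0431, 0.0380 and 0.251% in kisspeptin females and 0.154, 0.263, 0.0673, 0.265 and 0.185% in control females. In males at 2 d it was 0 to 0.0919% (median 0.0289%) in kisspeptin and 0.278, 0.0275, 0.0535 and 0.0954% in control fish. In males at 4 d it was 0.189, 0.0107, 0.0415, 0.174 and 0.0829% in control and 0.136, 0.0413, 0.0260, 0.0403 and 0.0361% in kisspeptin fish. A single kisspeptin female, A1-11-9, the only one with the main form, lay within the range of the control females, and the other 4 lay below all of them. In A1-7 and A1-12, kisspeptin males with totals of 57138 and 48918, no read of miR-144-3p was counted. A floor of 3 counts, which covers counting error only, stands at 52.5 and 61.3 cpm in these 2 fish. The 3 control groups had the highest means (10.77 ± 0.87 log2 cpm, n = 5, in females; 9.51 ± 1.28, n = 4, in males at 2 d; 9.46 ± 1.62, n = 5, at 4 d; SD), followed by kisspeptin males at 4 d (8.87 ± 0.95, n = 5), kisspeptin females (8.70 ± 1.66, n = 5) and kisspeptin males at 2 d (7.16 ± 2.74, n = 6, where A1-7 and A1-12 stand at the value the prior count gives). Of the steps in this order, only that from control females to control males at 2 d (1.26) exceeded the smaller SD of its pair, and none exceeded the larger one.

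The design asked first whether kisspeptin changed these miRNAs, and no member passed the test. With the quasi-likelihood test of edgeR over all names, 0 of the 3 members passed an adjusted p of 0.05 in males at 2 d, in females at 2 d or in males at 4 d, and 0% of the 123, 123 and 107 names tested did. At an unadjusted p under 0.05 stood 10, 11 and 2 names, and none of them was a member. DESeq2 called 1, 0 and 0 names and limma-voom 0, 0 and 0, with no member among them. An adjusted p was given by DESeq2 to 120 of 123, 120 of 123 and 102 of 107 names, and the others could not be called.

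For miR-451 the log2 change was 1.41 ± 0.79 (SE; adjusted p = 0.56) in males at 2 d, 0.10 ± 0.73 (adjusted p = 0.94) in females at 2 d and 0.14 ± 0.47 (adjusted p = 0.98) in males at 4 d by edgeR. The first of these was 0.37 without the 3 main forms and 0.47 without A1-6, and without the 3 main forms the value was −0.40 in females and 0.46 in males at 4 d. For miR-144-5p the log2 change was 0.41 ± 0.49 (adjusted p = 0.80) in males at 2 d, −0.27 ± 0.48 (adjusted p = 0.83) in females and −0.08 ± 0.43 (adjusted p = 0.98) in males at 4 d. Without scaling factors the value in females was 0.05. miR-144-3p had negative values in all 3 comparisons, −1.58 ± 1.13 (adjusted p = 0.77), −1.77 ± 1.14 (adjusted p = 0.58) and −0.77 ± 0.97 (adjusted p = 0.98), and kept that sign in all alternatives run, but none passed the test. Single fish moved their size: leaving out 1 fish gave −2.0 to −0.73 in males at 2 d (the latter without A2-11), −3.13 to −1.48 in females (the former without A1-11-9) and −1.56 to −0.34 in males at 4 d (without A4-3 and without A3-2). limma-voom gave −2.49 in males at 2 d and −0.50 in males at 4 d. The median log2 change of all names tested was −0.10, 0.04 and 0.03.

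At the level of single isomiRs, edgeR tested 68, 68 and 44 isomiRs of the 3 miRNAs in the same comparisons and called 0, 0 and 0, where 0% of the 684, 684 and 362 isomiRs of all names passed. Unadjusted, 5, 9 and 2 of them and 72, 118 and 15 of all isomiRs had p under 0.05. DESeq2 called 13, 13 and 2 isomiRs and limma-voom 0, 0 and 1, none of them from miR-451 or miR-144. DESeq2 gave an adjusted p to only 513 of 684, 409 of 684 and 356 of 362 isomiRs, and the others could not be called. How many isomiRs of these miRNAs were among the others is not given here. With no filter on low counts, 20 of 1857 isomiRs of all names passed in males at 2 d, 26 of 1857 in females and 24 of 1356 in males at 4 d. Among them was 1 isomiR of these miRNAs in males at each day, and 0 in females. At 2 d it was the 21-nt main form of miR-144-3p (log2 change −8.71, edgeR adjusted p = 0.0035), which had 106 and 40 counts in control males A2-11 and A2-16 and 0 in the other 2 control males and all 6 kisspeptin males. At 4 d it was a 21-nt form of miR-451 that starts 1 base late (aACCGTTAccattactgagtt; log2 change 8.57, edgeR adjusted p = 0.031), counted in 3 of 5 kisspeptin males and in 0 of 5 control males. The filter had not removed the main form of miR-144-3p in males at 2 d. With the filter, edgeR gave it a log2 change of −8.78 (unadjusted p = 0.0024, adjusted p = 0.44), so its call depended on the filter setting. Fitted changes of forms at 0 in a whole group depend on the prior count and are no measure of size.

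Differences between the sexes and days did not pass either. Between males and females at 2 d, edgeR gave log2 differences of −0.32 ± 0.53 for miR-451, −0.03 ± 0.34 for miR-144-5p and −1.26 ± 0.81 for miR-144-3p (adjusted p = 0.86, 0.98 and 0.50), and the small value of miR-144-5p became 0.38 without scaling factors, which moved the median of all names from 0.07 to 0.35. Between 4 d and 2 d in males they were 0.17 ± 0.41, −0.17 ± 0.33 and 0.39 ± 0.84 (adjusted p = 0.90 for each), beside a median of −0.31 for all names. The kisspeptin effect of males differed from that of females by 1.31 ± 1.06, 0.68 ± 0.68 and 0.19 ± 1.62 (adjusted p = 0.70, 0.73 and 0.97), and that at 4 d from that at 2 d by −1.22 ± 0.83, −0.74 ± 0.66 and 0.63 ± 1.67 (adjusted p = 0.82, 0.82 and 0.87). In these 4 comparisons 0% of the 123, 125, 123 and 125 names passed, and 13, 8, 7 and 12 had an unadjusted p under 0.05, none of them a member. DESeq2 called 2, 1, 1 and 2 names and limma-voom 0, 0, 1 and 0, with no member among them.

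The arm ratio of miR-144 was in favour of the 5p arm in every fish. In control females miR-144-5p had 8.99, 12.9, 7.42, 10.4 and 10.8 counts for each count of miR-144-3p (A2-2, A2-5, A2-7, A2-9 and A2-10), and in kisspeptin females 219, 69.0, 35.1, 54.4 and 12.3 (A1-1, A1-2, A1-3, A1-4 and A1-11-9). Only A1-11-9 came within the range of the controls. In control males at 2 d the ratio was 13.5, 76.1, 22 and 24.5, and in kisspeptin males it was 20.5, 49.1, 112 and 134 in the 4 fish with any miR-144-3p. For A1-7 and A1-12, which had none, a floor of 3 counts gave 411 and 547. That floor covers counting error only, so these are not lower bounds if the zeros have another cause, which was not tested. At 4 d it was 8.72, 158, 72.7, 11.9 and 36.4 in control males and 26.2, 27.4, 92.6, 50.6 and 39.5 in kisspeptin males, which overlapped fully. Some of the highest ratios rest on few counts of miR-144-3p: 219 on 3 counts in A1-1, 158 on 10 in A3-5 and 112 on 9 in A1-13. The ratio of 134 in A1-11-12 rests on 51.

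**Figure D3:**
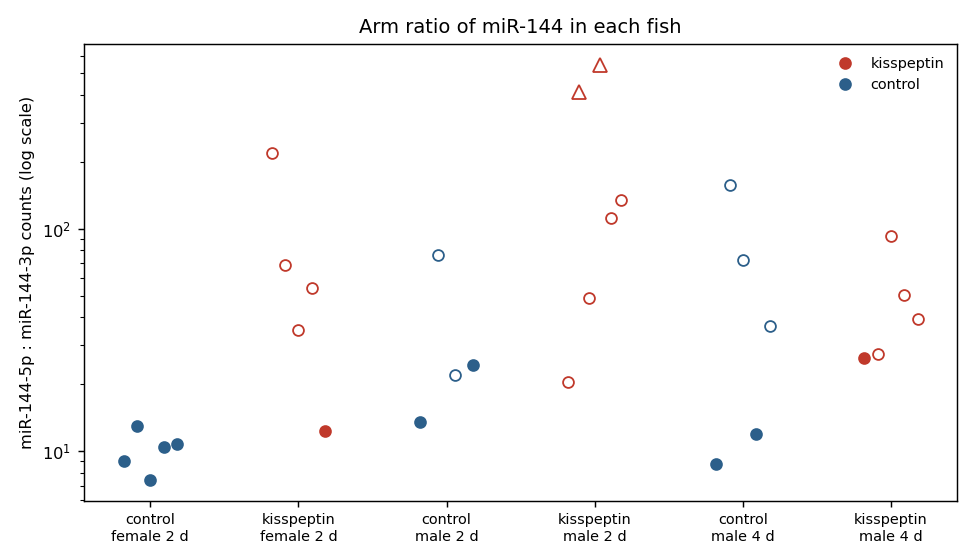
Counts of miR-144-5p for each count of miR-144-3p (y axis, log scale) in each fish of the 6 groups (x axis), blue control and red kisspeptin. Filled points are the 11 fish with the main form of miR-144-3p counted, which lie between 7.42 and 26.2, and open circles are fish with it at 0. Triangles are the 2 fish without any miR-144-3p, set with a floor of 3 counts that covers counting error only.

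On the log2 scale with 0.5 added to each count, the ratio was 2.31 higher in kisspeptin than in control females (5.62 ± 1.44 against 3.31 ± 0.30, SD, n = 5 each; two-sided exact permutation p = 0.016, adjusted p = 0.29 over 42 tests of single values). It was 3.03 higher in kisspeptin males at 2 d (7.78 ± 3.02, n = 6, against 4.74 ± 1.04, n = 4; exact p = 0.11, adjusted p = 0.42), a size that depends on the constant for A1-7 and A1-12, and 0.32 higher at 4 d (5.37 ± 0.74 against 5.05 ± 1.73, n = 5 each; exact p = 0.71, adjusted p = 0.92). With these 2 fish at the floor of 3 counts, the mean of kisspeptin males was 6.92 ± 1.81 (n = 6) and the difference 2.17 (exact permutation p = 0.071, adjusted p = 0.42). With 5 added to each count the difference was 1.97. The smallest p these exact tests could give was 0.0079 for 5 fish against 5 and 0.0048 for 6 against 4. Males exceeded females at 2 d by 1.80 (100000 permutations within treatment, p = 0.028, adjusted p = 0.29), and males at 4 d were 1.05 below those at 2 d (p = 0.26, adjusted p = 0.63 by permutation). With the same 2 fish at the floor of 3 counts, these differences were 1.37 and −0.62. No difference held after adjustment. Within the 11 libraries with the main form of miR-144-3p, the ratio had a narrow range of 7.42 to 26.2 (median 11.9), and within the 17 that held other forms only, it ran from 20.5 to 219 (median 54.4). The main form held a median of 88.8% of the miR-144-3p counts in those 11 libraries. This contrast therefore follows in part from how the libraries were divided. The part of the zeros in the difference between treatments was not tested.

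Ratios of miR-451 to other miRNAs showed no difference that passed. The log2 ratio of miR-451 to miR-144-5p was 2.24 ± 1.21 over the 30 fish, from 0.42 in A2-9 to 5.40 in A1-6. Kisspeptin and control fish differed in it by 0.37 in males at 2 d, −0.28 in females and 0.25 in males at 4 d (exact permutation p = 0.77, 0.79 and 0.63). In human plasma, miR-23 serves as a reference for red cell content because broken red cells change it little. Here it was counted unevenly too: its most counted form was at 0 in 19 libraries, which held 6 to 1352 counts of miR-23 (median 66), and was counted in 11, which held 810 to 4109 (median 1658). The log2 ratio of miR-451 to miR-23 was 4.91 ± 2.91 over the 30 fish, from 0.24 in A2-12 (2182 counts of miR-23) to 10.69 in A4-10 (6 counts). Whether it follows red cell content in these libraries was not tested. It differed by 0.82, −2.06 and −1.99 in the 3 comparisons (exact permutation p = 0.59, 0.28 and 0.38).

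The pair is transcribed as 1 cluster in mouse and zebrafish, and its position in sole is not given here. No correlation between the levels of the 3 miRNAs passed the test over the 30 fish. Pearson's r of log2 cpm was 0.05 for miR-451 and miR-144-5p (Spearman's rho 0.04), 0.09 for the arms of miR-144 (rho 0.18) and 0.13 for miR-451 and miR-144-3p (rho 0.16). The permutation p ranged from 0.34 to 0.85 over these 3 pairs, and the adjusted p of each was 0.85. Without the 2 fish farthest from the median, r was 0.14, 0.14 and 0.06. The levels share a denominator of which miR-451 is a large part, and with the members left out of the library totals r was 0.19, 0.25 and 0.25 (rho 0.24, 0.33 and 0.29), with adjusted permutation p from 0.237 to 0.302. On deviations from the group means r was 0.00, 0.34 and 0.27, with adjusted p of 0.985, 0.223 and 0.409 by permutation within groups. By the same permutation, rho was 0.08, 0.41 and 0.23, with adjusted p of 0.818, 0.215 and 0.409. The unadjusted permutation p of the rho of the miR-144 arms was 0.036. miR-451 and miR-144-5p had an r of 0.10 over the 17 fish with the 21-nt form and of 0.06 over the 13 without it (permutation p = 0.70 and 0.86). With the forms of miR-451 other than the 3 main ones, r was 0.12 (rho 0.04). Over the 11 fish with the main form of miR-144-3p, the arms of miR-144 had an r of 0.72 and a rho of 0.68 (permutation p = 0.014 and 0.026), a set of fish chosen after the counts were seen. Without the 2 fish farthest from the median of miR-144-5p, r was 0.14 and rho 0.42 (n = 9, permutation p = 0.72 and 0.27). Leaving out such fish also narrows the range of miR-144-5p, which can by itself lower r. Over the 19 fish with the main form of miR-144-3p at 0, r was −0.01.

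**Figure D4:**
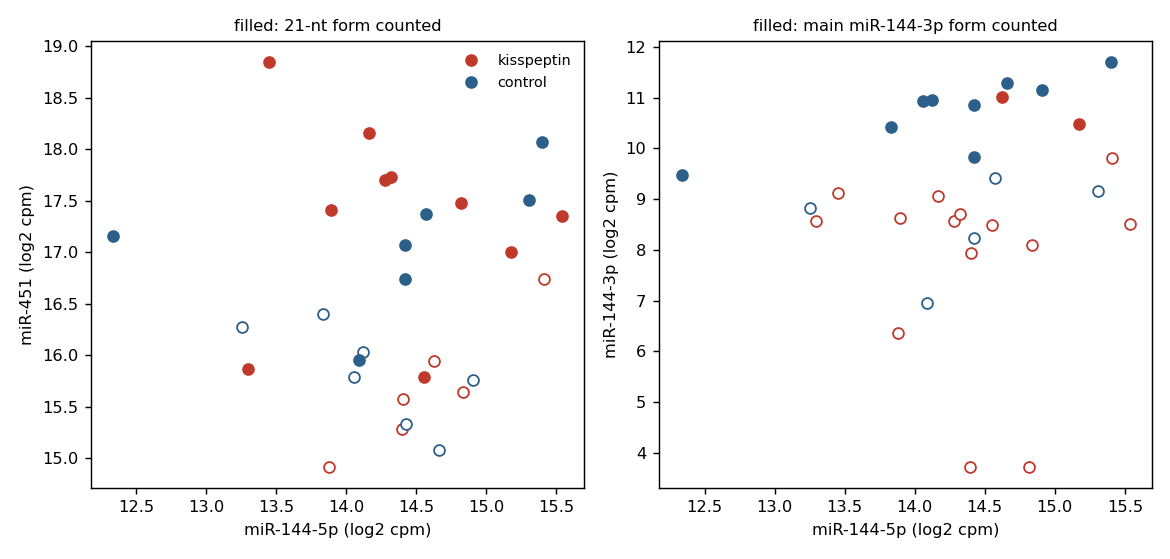
Level of miR-451 (left) and of miR-144-3p (right) against that of miR-144-5p, all in log2 cpm, over the 30 fish, blue control and red kisspeptin. Filled points are fish with the 21-nt form of miR-451 (left) or the main form of miR-144-3p (right) counted; they lie above most open points, and neither panel shows a common trend (r = 0.05 and 0.09). The lowest pair of open points on the right are A1-7 and A1-12, with 0 counts of miR-144-3p.

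The miRNAs whose levels followed the members most closely differed between them. Among the 54 other names counted in at least 25 libraries, miR-144-5p was most like miR-16b (rho 0.61), miR-26b (0.49) and miR-15a (0.49) over the 30 fish. miR-451 was most like miR-30c (rho 0.39), miR-15b (0.32) and miR-2188 (0.26). For miR-451 the rho with miR-16b was −0.03, rank 23 of 54. All levels share the library total as denominator, and these values are a description.

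Some of the other miRNAs listed for red cells were abundant in the same libraries. Of 6 numbers listed beside the members, miR-15, miR-16 and miR-25 were found, under 7 names. The numbers miR-363, miR-486 and miR-92 were not found among the 172 names analysed here, which does not show that they were absent from the plasma. The 3 found held 6.29 to 23.7% of the counts of a library (median 13.2%). Most of this was miR-16b, which alone held 10.4% of all counts. None of the 7 names passed in any of the 7 comparisons by edgeR, where 0% of all names passed and 1 of the 7 had an unadjusted p under 0.05, in females. DESeq2 and limma-voom called none of the 7 either. Their median log2 change with kisspeptin was 0.39 in males at 2 d, −0.21 in females and −0.05 in males at 4 d, beside −0.10, 0.04 and 0.03 for all names. The plasma also held miRNAs known from other tissues. Leukocyte miRNAs (miR-142, miR-150, miR-155 and miR-223; 6 names) held 0.390 to 5.15% of the counts, miR-126 of endothelium and thrombocytes (3 names) 1.83 to 12.5%, muscle miRNAs (miR-1, miR-133 and miR-206; 8 names) 0.157 to 15.3% and miR-122 of liver (2 names) 0.0076 to 20.4%. None of these names passed in any comparison by edgeR, where 4 of the 8 muscle names were tested and 1 or 2 of a list had an unadjusted p under 0.05 in some comparisons. limma-voom called none of them, and DESeq2 called miR-1a-3p of muscle between kisspeptin and control males at 2 d and miR-122-5p of liver between the sexes. DESeq2 also called miR-1a-3p in the difference of the kisspeptin effect between days. Their part in the levels of the members was not tested. The most counted form of miR-1a-3p was counted in 10 of the 30 libraries and that of miR-122-5p in 9. The muscle and liver shares and these DESeq2 calls thus depend in part on which forms were counted. Muscle miRNAs had medians of 10.8% in kisspeptin and 2.51% in control males at 2 d, of 3.72% and 0.697% in females and of 3.11% and 2.04% in males at 4 d. Leukocyte miRNAs had medians of 1.68% and 1.93%, 2.43% and 0.821%, and 1.45% and 1.77% in the same order, miR-122 of 0.491% and 1.25%, 2.01% and 3.63%, and 0.721% and 1.67%, and miR-126 of 3.80% and 3.79%, 3.77% and 5.19%, and 4.58% and 4.66%. The other miRNAs listed for red cells, mostly miR-16b, had 14.8% and 13.4%, 14.3% and 14.1%, and 11.6% and 10.3%. Whether their share follows red cell content was not tested.

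The ends of the isomiRs differed between the members. miR-451 was counted most often at 21 nt (65.4% of its counts), with 18.7% at 20 nt, 9.03% at 22 nt and 4.49% at 19 nt. miR-144-5p was longer, with 53.2% at 23 nt, 25.4% at 22 nt and 11.5% at 24 nt, and miR-144-3p had 67.5% at 21 nt. Of the miR-451 counts 91.7% shared the main 5′ start, 3.92% started 1 base later and 3.44% a further base later. At the 3′ end 70.9% stopped where the 21-nt form does, 16.3% were 1 base shorter and 9.71% 1 base longer. For miR-144-5p 77.7% had the main 5′ start and 16.8% started 1 base later, so that 1 count in about 6 carried the seed ATATCAT in place of GATATCA. For miR-144-3p 82.1% started with the C that precedes the forms with the seed ACAGTAT, and 12.9% had that seed.

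The shift of the 5′ start of miR-144-5p was seen in every fish. Counts at the main start were 75.9 ± 5.1% (SD, n = 30) per fish, from 63.1% in a control male to 83.9% in a control female, and counts 1 base later were 11.1 to 28.4% (median 18.4%). Group medians of the main start were 80.5% in kisspeptin and 74.6% in control females, 77.9% and 73.2% in males at 2 d and 73.5% and 78.0% in males at 4 d, and the ranges overlapped in each pair of groups.

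Where 2 of the main miR-451 forms were counted in the same fish, their ratio could be taken. The 21-nt form had 3.26 to 7.90 counts for each count of the 20-nt form (median 4.92) in 10 fish and 4.09 to 10.7 for each count of the 22-nt form (median 7.58) in 9 fish. The 20-nt form had 0.626 to 2.93 counts for each count of the 22-nt form in 8 fish. In A1-6 the 21-nt form had 19154 and the 22-nt form 1798 counts, and in A3-6 they had 9139 and 2232, the highest and the lowest of those ratios. The 21-nt form thus had more counts than either neighbour wherever they could be compared.

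The mean read length of miR-451 was 20.78 ± 0.43 nt over the 30 fish, and its spread came with the forms that were counted: 19.66 nt in A1-1, where of the 3 main forms only that of 20 nt was counted, and 21.43 nt in A1-7, where only that of 22 nt was. Kisspeptin and control fish differed by −0.06 nt in males at 2 d, 0.23 nt in females and 0.18 nt in males at 4 d (exact permutation p = 0.86, 0.51 and 0.11; n = 6 against 4 and 5 against 5). For miR-144-5p the mean was 22.66 ± 0.20 nt, and the differences were 0.02, 0.26 and −0.07 nt (exact permutation p = 0.84, 0.10 and 0.38). Males at 4 d exceeded those at 2 d in it by 0.16 nt (100000 permutations within treatment, p = 0.021, adjusted p = 0.29). For miR-144-3p, in the 22 fish with at least 20 counts, the mean was 19.96 ± 1.15 nt. It was 0.88 nt shorter in 4 kisspeptin (19.83 ± 0.63) than in 5 control females (20.71 ± 0.20; exact permutation p = 0.016, adjusted p = 0.29), and 0.58 nt shorter without A1-3. In males at 4 d it was 18.56 ± 1.90 in kisspeptin and 20.27 ± 0.71 in control fish (n = 4 each; exact permutation p = 0.086, adjusted p = 0.42). This difference of −1.71 nt was −0.81 nt without A4-9 (15.89 nt). At 2 d, 3 kisspeptin fish could be set beside 2 controls, where an exact test cannot go below 0.1. The 21-nt main form, which is longer than all but 1 other form of miR-144-3p, was at 0 in most kisspeptin fish, as given above.

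The reads of miR-451 were compared within each fish with those of 3 abundant miRNAs made by Dicer, miR-144-5p, miR-16b and miR-22a. The SD of read length within a fish was 0.93 ± 0.35 nt for miR-451 (SD over fish, n = 30), 0.90 ± 0.13 for miR-144-5p, 0.70 ± 0.11 for miR-16b and 0.65 ± 0.04 for miR-22a. The difference was 0.03 nt against miR-144-5p (sign-flip permutation test, adjusted p = 0.65; higher in 11 of 30 fish), 0.22 nt against miR-16b (adjusted p = 0.0025; 16 of 30) and 0.27 nt against miR-22a (adjusted p = 0.00018; 20 of 30). The share of counts at the main 5′ start was 87.9 ± 11.0% for miR-451, against 75.9 ± 5.1% for miR-144-5p (adjusted p = 0.00015; higher in 25 of 30), 96.2 ± 1.5% for miR-16b (adjusted p = 0.00015; lower in 26 of 30) and 93.2 ± 1.4% for miR-22a (adjusted p = 0.014 by permutation; lower in 17 of 30). Both measures depend on which forms were counted, and only 4 of the 30 fish had all 3 main forms of miR-451 counted. These p-values therefore do not measure the ends of miR-451 alone. The part of the zeros in the differences was not tested. Much of the spread of miR-451 lay between fish. In the 4 fish with all 3 main forms, the share at the main start was 92.7 to 95.8%. On average this was 1.05 percentage points above miR-22a, above miR-144-5p and below miR-16b. The SD of read length in these 4 fish exceeded that of miR-22a by 0.17 nt and that of miR-16b by 0.16 nt. Its difference from that of miR-144-5p in these 4 fish is not given here. With 4 fish a sign-flip test cannot go below 0.125.

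**Figure D5:**
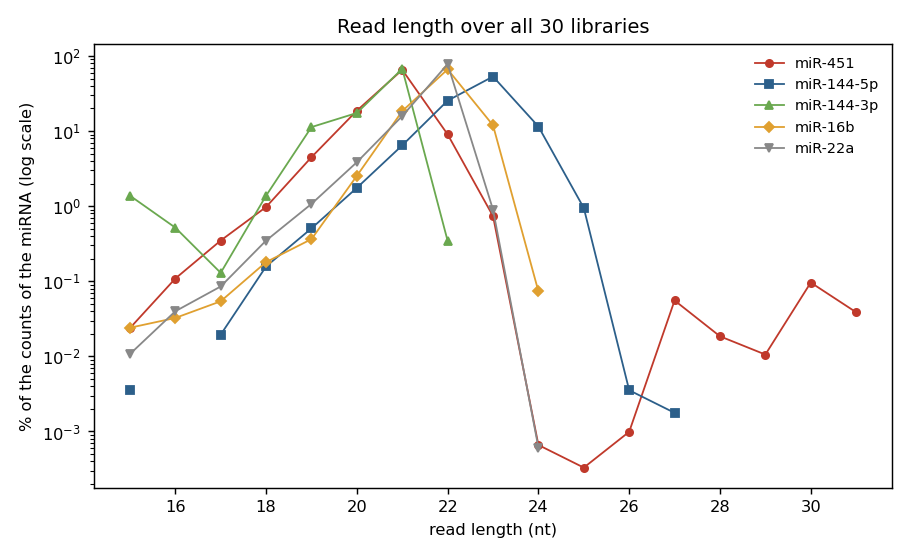
Share of the counts of each miRNA (%, y axis, log scale) at each read length (nt, x axis), over all 30 libraries, for miR-451, miR-144-5p, miR-144-3p, miR-16b and miR-22a. miR-451 peaks at 21 nt and has a second group of reads at 27 to 31 nt (0.219% of its counts) that the other 4 lack, apart from 1 count of miR-144-5p.

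Nearly all long reads of the table belonged to miR-451. In all, 9 of its isomiRs were 27 to 31 nt long and held 664 counts, 0.219% of miR-451, while lengths of 24 to 26 nt held 6 counts. Over all names there were 694 counts of 27 nt or more, so miR-451 held 95.7% of them, and no other name had more than 13 (miR-26b). miR-16b and miR-22a, with 249438 and 326108 counts, had 0, and miR-144-5p had 1. The most counted form of each length from 27 to 30 nt, which shares the start and the seed of the 21-nt form and runs on at the 3′ end, is shown to make the extension visible.
miR-451, 21 nt: aAACCGTTaccattactgagt
miR-451, 27 nt: aAACCGTTaccattactgagttttagt
miR-451, 28 nt: aAACCGTTaccattactgagttttagta
miR-451, 29 nt: aAACCGTTaccattactgagttttagtaa
miR-451, 30 nt: aAACCGTTaccattactgagttttagtaat
The 30-nt form had 282 counts in 11 fish, the 27-nt form 168 in 12 and the 31-nt form, which adds a G, 117 in 16. The last 6 bases of the 30-nt form, AGTAAT, are the reverse complement of ATTACT within the same form. These forms were noticed after the counts were seen, and no test was made on them.

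The long forms were found in 25 of the 30 fish and in every group. Kisspeptin females had 0, 134, 106, 7 and 3 counts (A1-1, A1-2, A1-3, A1-4 and A1-11-9) and control females 0, 106, 0, 13 and 6 (A2-2, A2-5, A2-7, A2-9 and A2-10). Kisspeptin males at 2 d had 0 to 33 counts (median 5) and control males 1, 19, 5 and 21, and at 4 d control males had 1, 5, 42, 6 and 1 and kisspeptin males 47, 0, 59, 6 and 15. As a share of the miR-451 counts they ran from 0 to 2.66% (A1-2), and 1.05% was the next highest (A4-9). Groups overlapped throughout, and the denominators depend on whether the main forms were counted, as they do not for the counts themselves.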

How the data were processed

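The authors removed adapters and random end bases with Cutadapt, mapped the reads to miRBase hairpins with bowtie2 and deposited raw counts per isomiR; the submitters' notes name cutadapt 2.1, Bowtie2 2.4.1 and HTSeq 0.6.0. Counts of 30 libraries (25468 to 191846 each) were summed to names. Groups came from the labels, and nothing marks repeat libraries of a fish.

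Names or isomiRs with at least 1 cpm in 4 libraries were tested with edgeR 4.0.16 (limma 3.58.1, R 4.3.3, quasi-likelihood, TMM, Benjamini-Hochberg, threshold 0.05). The test was run on simulated data with large planted changes and without the uneven zeros described above. That run does not show whether changes as small as those of the 3 miRNAs could be found. The 4 groups of 2 d, the males of 4 d and all males were fitted separately. Single values used at least 20 counts per fish and exact permutation or 100000 permutations within treatment (Python 3.11.15, numpy 2.4.6, scipy 1.17.1, pandas 2.3.3, matplotlib 3.10.9). Adjusted p-values of correlations cover both coefficients of the 3 pairs. SE is that of the log2 fold change.

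The members, lists and tests were chosen with earlier results of these data known. Named were the 4 most counted isomiRs of each member, any past the threshold, miR-16b, miR-22a, miR-23, the listed tissue miRNAs and the 3 names most correlated with miR-451 and with miR-144-5p; the long forms were added after their counts were seen. Alternatives were limma-voom, DESeq2 1.42.0, no scaling factors, other filters, count minimums, constants and prior counts, one fit of all fish, totals without the members, sequences under a single name, each fish left out and, chosen after the data were seen, splits by counted forms and a floor of 3 counts for zeros.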

Additional observations from a re-analysis of the deposited data

Results flagged for a closer look

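In 52 sets of fish (9 values in 6 groups, where a group had enough fish), 2 held a fish that stood well apart, and chance gives about 1 in 20. The mean read length of miR-451 in kisspeptin female A1-1 was 19.66 nt, against 20.82 to 21.02 nt in the other 4 fish. Of the 3 main forms, only the 20-nt one was counted in A1-1. The mean read length of miR-144-3p in control female A2-7 was 20.37 nt, against 20.73 to 20.86 nt in the other 4.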

How the results depend on the processing

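None of the 21 log2 changes of the members passed the threshold under any alternative (lowest adjusted p 0.30), and 11 kept their sign throughout. Causes of the changes below were not tested, and the splits by counted forms were chosen after the data were seen.

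With limma-voom the log2 change of miR-451 was −0.13 in females and −0.005 in males at 4 d, that of miR-144-5p 0.13 in females and 0.20 between the sexes, and the sex difference of the kisspeptin effect on miR-144-3p −0.26. For miR-144-5p between the sexes, DESeq2 gave 0.11, no scaling factors 0.38, 1 cpm in all fish 0.26, no filter 0.084, a single fit of all fish 0.27 and totals without the members 0.063. No scaling factors also gave 0.048 for miR-144-5p in females, −0.46 for the sex difference of the effect on miR-144-3p, and a correlation of −0.0131 for miR-451 and miR-144-5p. With 1 cpm in all fish miR-144-5p in females was 0.0076, and with totals without the members its change from 2 d to 4 d was 0.0091. Without its 3 main forms miR-451 was −0.40 in females, −0.42 from 2 d to 4 d and 0.0945 for the day difference of the effect.

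With no filter on isomiRs, 1 member isomiR was called in males at 2 d and 1 at 4 d. Of all names, 20 of 1857, 26 of 1857 and 24 of 1356 isomiRs were called in males at 2 d, females and males at 4 d, against 0 in each with the filter. With at least 1 count per fish the mean read length of miR-144-3p differed by −0.22 nt between the sexes and by 0.43 nt in the sex difference of the effect. With 5 added to counts the sex difference of the arm ratio effect was −0.0115, and with the 2 fish without miR-144-3p at 3 counts it was −0.14. In fish with the 21-nt form the log2 ratio of miR-451 to miR-144-5p changed by −0.20 from 2 d to 4 d. The correlation of the miR-144 arms was 0.72 in fish with the main 3p form and −0.0056 in the others. In the 4 fish with all 3 main forms, miR-451 differed in SD of read length by 0.16 nt from miR-16b and 0.17 nt from miR-22a, and in the main-start share by 19.4, −2.34 and 1.05 percentage points from miR-144-5p, miR-16b and miR-22a.

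Leaving out each fish in turn, the log2 change of miR-451 ran from −0.51 to 0.64 in females, −0.14 to 0.30 in males at 4 d and −0.009 to 0.49 from 2 d to 4 d. That of miR-144-5p ran from −0.73 to 0.072 in females, −0.53 to 0.092 in males at 4 d and −0.16 to 0.14 between the sexes. For the effect on miR-144-3p, the sex difference ran from −0.23 to 1.89 and the day difference from −0.21 to 1.2. The arm ratio ran from −0.0595 to 1.41 for the sex difference and −0.16 to 0.87 in males at 4 d. The log2 ratio of miR-451 to miR-144-5p ran from −0.79 to 0.31 in females, −0.28 to 0.79 in males at 2 d, −0.0057 to 0.58 in males at 4 d and −0.54 to 0.52 for the day difference, and that to miR-23 from −0.12 to 1.68 in males at 2 d. The mean length of miR-451 ran from −0.25 to 0.10 nt in males at 2 d and −0.0935 to 0.068 nt between days, that of miR-144-5p from −0.067 to 0.10 nt in males at 2 d, −0.025 to 0.079 nt between the sexes and −0.16 to 0.0006 nt for the day difference, and that of miR-144-3p from −0.12 to 0.16 nt between the sexes and −0.96 to 0.54 nt for the day difference. The correlation of miR-451 and miR-144-5p ran from −0.024 to 0.17.

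With 0 to 431 counts per library, miR-144-3p has the widest relative counting error of the 3. Its main form had 279 counts in A2-2 (191846 counts in all) and 0 in A1-11-12 (157656). Among shallow libraries it had 31 counts in A1-11-9 (25468) and 0 in A2-14 (29918). These 4 libraries are examples only. The relation of its zeros to library depth was not tested.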

Other observations

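Forms that are abundant in some libraries and at 0 in others were not particular to the names described. Of the 111 isomiRs with a median of at least 100 counts where counted, 36 were counted in all 30 libraries, and miR-21 had 5 of 6 such forms at 0 in some libraries.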
